A study of Mus musculus with 6 samples.

Results

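Regions of open chromatin were examined that carried a called ATAC-seq peak in at least 2 of the 3 lists labelled Dek_fl and in none of the 3 lists labelled Dek_cKO. Peaks of all 6 lists on chromosomes 1 to 19 and X were merged into 84592 regions wherever they shared at least 1 bp, and 291 of these regions met the rule, or 0.344%. The peak calls themselves chose the members, so their calls and strengths in the Dek_fl lists are given as descriptions, with no test. The opposite rule, at least 2 Dek_cKO lists and no Dek_fl list, was met by 2695 regions, or 3.19%. All cells were bone marrow hematopoietic stem cells of C57BL/6 mice aged 12 weeks, about 20000 per library, sorted in the homeostatic state for CD150+ and CD48- among the Lin- cells that carried Sca-1 and c-Kit. The Dek_fl libraries came from Dekfl/fl mice and the Dek_cKO libraries from Dekfl/fl,Tie2-Cre mice, with 3 libraries in each group, although the series' design text speaks of duplicates. By the labels both groups carried the floxed alleles and differed by the Cre transgene. Dek_fl and Dek_cKO stand throughout for the libraries labelled so. Tie2-Cre acts in endothelial as well as blood cells, and the labels do not say whether animals were pooled or gave 1 library each.

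In ATAC-seq the Tn5 transposase inserts adapters into DNA that is not wrapped tightly, so that promoters and enhancers in use give peaks. Dek encodes a nuclear protein that binds chromatin, and the series asks how it bears on the accessibility of stem cell chromatin. Enhancers usually lie in introns or between genes and vary more between cell states than promoters do. A peak caller lists a site only where its reads pass a threshold against local background, so the lists hold no value for sites that fall short.

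The lists labelled Dek_fl held 23809 to 71547 peaks on these chromosomes and those labelled Dek_cKO 27167 to 73160, and the shortest list of each group was replicate 3. Peaks had a −log10 q-value of at least 1.30 to 1.33 in replicates 1 and 2, and of at least 2.82 to 2.83 in replicate 3, where the deposited score was built on p in place of q. Both groups are split in the same way between these 2 kinds of list. The reads behind each list are unknown, members have no Dek_cKO value, and the lack of a call does not show closed chromatin. Of the genes used for the sort, Kit had a peak within 1 kb of a gene end in all 6 lists, Slamf1 (CD150) in 2 lists of each group and Ly6a (Sca-1) in 1 Dek_fl list. Cd48, whose product the sort selected against, also had such a peak in all 6 lists. Among 21 genes of myeloid cells, 14, 16 and 7 had such a peak in the Dek_fl lists and 18, 16 and 10 in the Dek_cKO lists, in replicate order. Ly6g of neutrophils had none in any list, nor had Cdh5 of endothelium, while Cd3d of T cells had one in all 6 lists. Of 17 genes of T and NK cells, 8, 9 and 1 had such a peak in the Dek_fl lists and 9, 10 and 2 in the Dek_cKO lists, in replicate order. Over the 23 endothelial genes listed, 17, 18 and 7 had such a peak in the Dek_fl lists, in replicate order, and 18, 18 and 5 in those of Dek_cKO.

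The labels could be read against 2 loci. At Dek itself each of the 6 lists held 1 peak, at the upper end of the gene, with −log10 q of 17.8, 45.4 and 49.0 for Dek_fl and 53.4, 25.2 and 37.8 for Dek_cKO, in replicate order. Since the labels do not say which exons are floxed, this checks nothing. The other locus is Tek, whose control DNA drives the Cre in Tie2-Cre mice, so that the transgene would add its reads there in the libraries that carry it. The peak at the start of Tek had −log10 q of 255, 570 and 53.0 in the libraries labelled Dek_fl, against 30.5, 18.2 and 6.17 in those labelled Dek_cKO. Inside the gene a second peak was called only in the libraries labelled Dek_fl. The excess at Tek thus ran opposite to the labels. Which libraries carried the transgene was not tested, and every direction given here follows the labels.

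Letters of the genome were at hand only for windows of the RefSeq promoter table (GRCm38.p6, the same build as mm10). Each window holds 250 bases before a start site and 50 after it, and only the 250 upstream bases were searched and printed. Of the 291 members, 5 met a window of that table, and the one at Il33 met none of its upstream bases. Printed here are a start site of Tek, the gene that holds the strongest member, and 3 start sites reached by a member, all written 5′ to 3′ on the gene's strand. The Tek bases are chr4:94739039-94739288 (plus strand), where capitals mark the 223 bases that lie inside a called peak in all 6 lists. The start site used, 94739289, lies inside the annotated gene (chr4:94739086-94874976), as do most of the printed bases. Gm52556, a predicted gene, has its upstream bases chr2:72351672-72351921 (minus strand) wholly inside a member, and capitals mark motif matches. Trim71, which encodes an RNA-binding ubiquitin ligase of stem and germ cells, is shown at chr9:114564370-114564619 (minus strand), and Ace, which encodes angiotensin-converting enzyme, at chr11:105974939-105975188 (plus strand). The Ace start site used is an internal one, since the gene spans chr11:105967948-105989964. In these last sequences capitals mark the 15 and 42 bases inside the member.
Tek: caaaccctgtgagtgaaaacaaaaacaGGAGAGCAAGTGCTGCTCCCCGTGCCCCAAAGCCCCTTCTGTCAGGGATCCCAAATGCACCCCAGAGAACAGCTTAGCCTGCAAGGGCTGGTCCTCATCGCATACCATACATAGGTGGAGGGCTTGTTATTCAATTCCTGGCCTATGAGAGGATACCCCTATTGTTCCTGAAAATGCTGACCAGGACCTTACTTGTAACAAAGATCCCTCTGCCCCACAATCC
Gm52556: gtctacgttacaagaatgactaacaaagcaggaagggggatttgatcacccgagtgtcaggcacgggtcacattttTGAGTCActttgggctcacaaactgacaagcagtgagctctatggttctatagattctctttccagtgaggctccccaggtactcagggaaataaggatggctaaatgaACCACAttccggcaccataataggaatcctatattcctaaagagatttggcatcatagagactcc
Trim71: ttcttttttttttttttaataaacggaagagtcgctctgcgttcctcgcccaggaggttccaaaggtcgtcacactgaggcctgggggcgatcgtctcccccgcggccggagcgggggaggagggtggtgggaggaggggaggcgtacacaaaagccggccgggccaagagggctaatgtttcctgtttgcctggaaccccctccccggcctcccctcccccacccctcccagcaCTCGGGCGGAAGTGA
Ace: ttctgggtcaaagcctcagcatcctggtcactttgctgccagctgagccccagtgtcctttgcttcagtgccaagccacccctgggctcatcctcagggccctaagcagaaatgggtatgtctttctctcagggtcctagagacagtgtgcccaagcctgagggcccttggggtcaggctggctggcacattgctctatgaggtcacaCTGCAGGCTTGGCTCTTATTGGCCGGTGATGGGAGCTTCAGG
Motifs were searched on both strands in these windows: AGATAA for the GATA family, ETS (GGAAGT), RUNX (TGTGGT), AP-1 (TGANTCA), an E-box (CAGCTG), CEBP (TTGCNNAA), the CTCF core and MYB (AACNGTT). In the upstream bases of all 32851 windows of the table they were found in 9.99%, 19.7%, 14.0%, 6.75%, 13.0%, 9.56%, 0.310% and 3.80%, in that order. The member at Gm52556 had folds over background of 3.65 and 2.81 in Dek_fl replicates 1 and 2, that at Trim71 2.76 and 2.50, and that at Ace 2.65 and 2.81. The Gm52556 window held 1 AP-1 match and 1 RUNX match, which did not overlap. The Trim71 window held 1 ETS match, which lies among the capitals, and the Ace window 1 E-box match, which lies outside them. None of the 8 motifs was found in the Tek window. Nor was any found in a window of the predicted gene Gm13652, chr2:75136816-75137065 (minus strand), which lies wholly inside a member and is not printed. These windows are too few for a comparison, and the member inside Tek itself lies outside the table.

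The strongest member lay in the body of Tek (gene ID 21687), which encodes Tie2, the receptor for angiopoietins on stem and endothelial cells, and whose control DNA drives the Cre of Tie2-Cre mice. The member spans chr4:94745330-94746933 and was called in all 3 Dek_fl lists. Its fold over local background was 9.20, 9.40 and 11.9 in replicates 1, 2 and 3, at percentiles 98.3, 98.3 and 85.3 of each list. Its −log10 q was 225, 429 and 42.5. The next member by mean percentile of fold stood at 75.8, against 94.0 for Tek, which is alone in the plot of strength. Peaks at the start of Tek, 5074 bp away, were called in all 6 lists, with folds of 7.87, 8.19 and 8.72 for Dek_fl and 7.56, 5.98 and 5.87 for Dek_cKO, each in replicate order. As percentiles of each list these folds stood at 93.1, 93.7 and 60.2 for Dek_fl and 81.6, 59.2 and 18.1 for Dek_cKO, so the groups overlapped on that scale and not in the folds themselves. Folds were higher in every Dek_fl list than in any Dek_cKO list at 3 of the 19683 regions called in all 6 lists (0.0152%). By −log10 p this held at 1 region (0.00508%), the start of Tek. Neither measure is on a common scale across lists. At regions also called in a Dek_cKO list, median fold was 4.50, 4.76 and 7.96 in Dek_fl replicates 1, 2 and 3. Such shares depend on these differences in scale, so they do not measure how rare the values at Tek are. With limma the difference in rank of fold at this region had an adjusted p of 1.0 (0.15 with the replicate number as a block), as described further on. The peaks also differed in extent. Those of Dek_fl were 2028, 2010 and 1819 bp long and those of Dek_cKO 1304, 1269 and 770 bp. The first ended at 94739587, 94739587 and 94739534, and the second at 94740256, 94739932 and 94739835, so those of Dek_cKO reached farther into the gene. The gene table gives no exons, so whether the member is intronic is not known. In sorted bulk cells, fewer cells with an open site and less opening per cell cannot be told apart. At Tek, reads added by transgene copies of its control DNA cannot be told apart from these either, and this was not tested. Tek is in both the stem cell and the endothelial list. Gene-end calls at the 23 endothelial genes numbered 17, 18 and 7 for Dek_fl and 18, 18 and 5 for Dek_cKO. Such calls do not measure a share of endothelial cells, which was not tested.

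**Figure D1:**
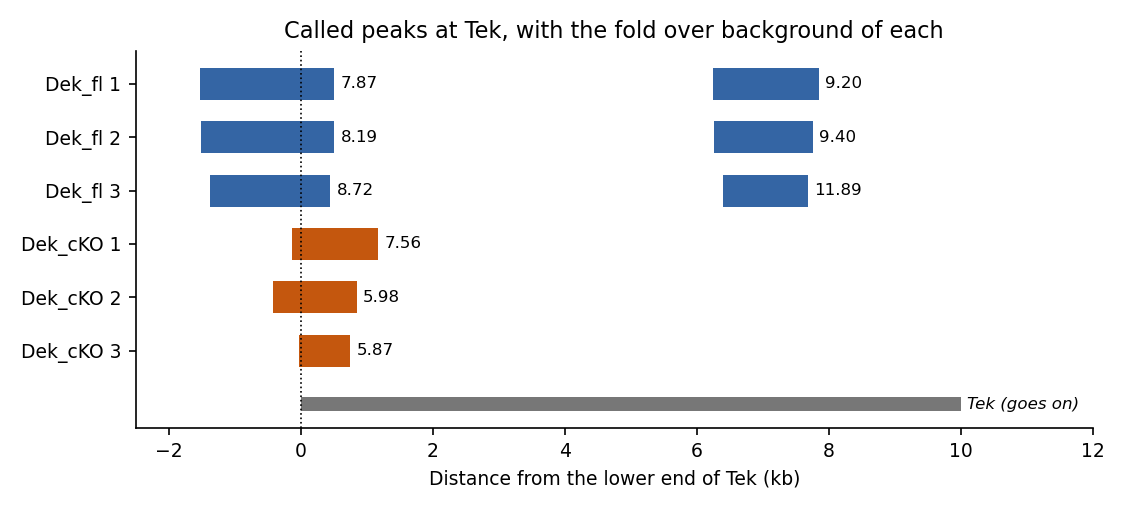
Called peaks near the lower end of Tek in the 6 lists; the x axis is the distance from that end in kb, each bar is 1 peak, and the number beside it is its fold over local background. All 3 lists labelled Dek_fl hold a peak 6 to 8 kb inside the gene and none labelled Dek_cKO does, while peaks at the gene end occur in all 6.

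Only 2 other members were called in all 3 Dek_fl lists, which makes 3 of 84592 regions, or 0.00355%. The first lay in the body of Sult2b1, a sulfotransferase of cholesterol and steroids, at chr7:45739510-45739897. Its folds were 3.18, 2.76 and 4.75 in replicates 1, 2 and 3, at percentiles 19.7, 12.4 and 7.53, and its −log10 q was 9.77, 14.8 and 7.39. The second lay in the body of Fam178b at chr1:36630127-36630584, with folds of 2.91, 2.69 and 7.48 at percentiles 11.8, 10.95 and 44.9. By fold both were weak peaks in replicates 1 and 2, in contrast to Tek, while by −log10 q the region in Sult2b1 stood at percentiles 43.8 and 41.3.

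Nearly all members rested on the same pair of lists. Dek_fl replicates 1 and 2 alone called 272 of them (93.5%), replicates 2 and 3 called 15, and replicates 1 and 3 called 1. Leaving out Dek_fl replicate 1 left 18 regions that met the rule in both remaining Dek_fl lists, and leaving out replicate 2 left 4. Without Dek_cKO replicate 1 the number rose to 927 and without Dek_cKO replicate 2 to 922. The single region of replicates 1 and 3 lay at an end of the predicted gene Gm33862 and in the body of Sfi1, with folds of 1.34 and 2.52, the lowest fold of all members in each of these lists. Among the 15 of replicates 2 and 3 were a region at an end of Mcl1, a survival gene of the Bcl2 family that stem cells need, with folds of 1.49 and 2.82, and one at an end of Rnaset2a, a ribonuclease gene, with folds of 3.17 and 6.48. The member in Cd200r3, a receptor gene of myeloid cells named here after its values were seen, had folds of 3.00 and 6.98.

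Members were weak peaks within their lists. In Dek_fl replicate 1 the median fold of the 276 members called there was 2.93 and the median −log10 q was 3.47, against 4.50 and 12.2 for the 49770 regions also called in a Dek_cKO list. In Dek_fl replicate 2 the 290 members had medians of 2.85 and 5.41, against 4.76 and 21.3 for 66521 such regions. In Dek_fl replicate 3 the 19 members had medians of 5.98 and 7.15, against 7.96 and 17.4 for 23122. Fold lay under the 25th percentile of the list for 83.7%, 75.5% and 57.9% of members in replicates 1, 2 and 3. Above the 50th percentile lay 6, 6 and 1 of them. The 2 columns did not rank members alike: at Adgre5, an adhesion receptor gene of leukocytes named after its values were seen, folds of 2.57 and 1.95 stood at percentiles 4.58 and 0.903, while −log10 q was 9.06 and 10.0.

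**Figure D2:**
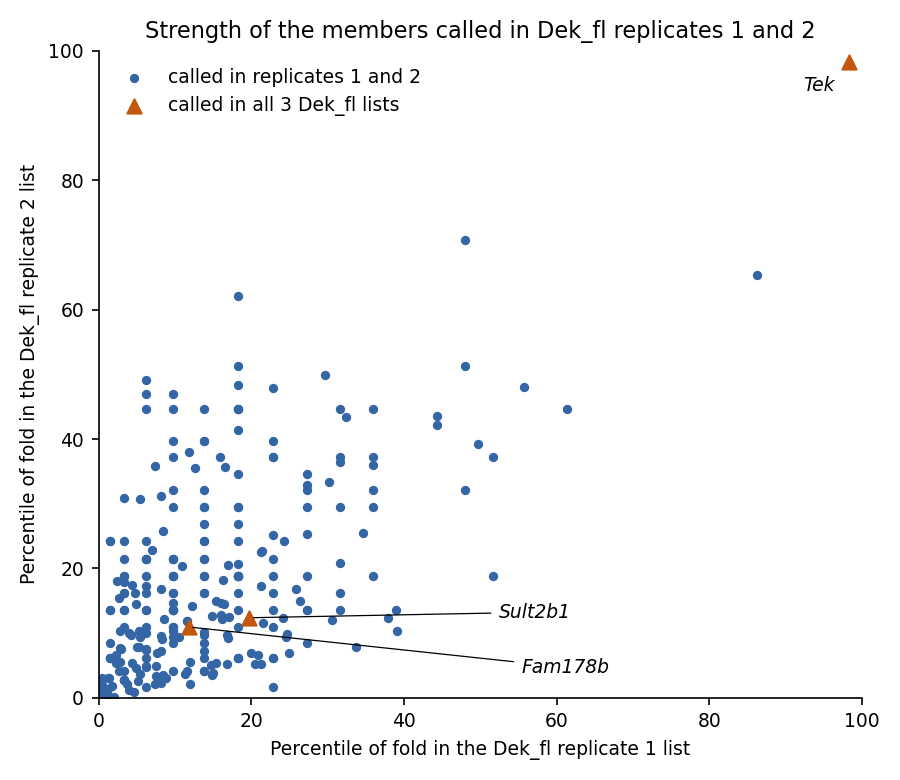
Percentile of fold within the Dek_fl replicate 1 list (x axis) and the Dek_fl replicate 2 list (y axis) for the 275 members called in both; triangles mark the 3 members also called in replicate 3. Most points crowd below the 25th percentile on both axes, and Tek lies alone at 98.3 on each.

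Over the 275 members called in both replicates 1 and 2, the fold was higher in replicate 2 at 123 and the −log10 q at 221, with a median fold ratio of 0.981. Folds of the 2 lists went together loosely across members (Spearman's rho 0.49, Pearson's r 0.67, n = 275), a description in which Tek is the farthest point. Their summits lay within 100 bp of each other at 61.8% of these members. Among those under the 25th percentile of fold in replicate 1 the share was 58.7% (n = 230), and among the 10122 equally weak regions of both lists with a Dek_cKO call it was 56.9%. Summit positions thus repeated between the 2 lists about as often at weak members as at other weak regions.

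Of the 7 members that followed Tek by mean percentile of fold, 4 lay outside genes and 3 in gene bodies. An intergenic region at chr2:181928313-181929351, 17104 bp from the predicted gene Gm40035, had folds of 6.92 and 5.49 and −log10 q of 24.6 and 18.4 in replicates 1 and 2. A second one at chr2:181930895-181931403 had folds of 4.66 and 4.45. These 2 were the closest pair of members. The region at chr1:184395026-184395731, 319390 bp from Dusp10, a MAP kinase phosphatase gene, had folds of 4.31 and 5.86. In the body of Cfap54, a gene of motile cilia, the folds were 4.97 and 4.27, and in Rnf34, a ubiquitin ligase gene, 4.31 and 4.64. The member in Il2ra, the alpha chain of the interleukin 2 receptor of lymphocytes, had folds of 4.48 and 3.91. One 35815 bp from Calca, which encodes calcitonin and its gene-related peptide, had 4.38 and 4.02. By −log10 q the 8 highest also held a region in Cdh23, a cadherin of sensory hair cells, with 10.3 and 14.2. They held one 92754 bp from Tbl1xr1, a subunit gene of the NCoR corepressor complex, with 7.79 and 19.5. Both calls reached a −log10 q of 10 at only 5 members, namely Tek, the pair near Gm40035, Cfap54 and Cdh23.

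How often a region of Dek_fl replicates 1 and 2 was a member varied with its strength. Of 3801 such regions below the 10th percentile of fold in replicate 1, 127 (3.34%) had no Dek_cKO call. The share was 1.57% between the 10th and 25th percentiles and 0.311% between the 25th and 50th. It was 0.0307% between the 50th and 75th percentiles, and above that 2 of 13098 regions (0.0153%), Tek and one near Gm40035. The share fell in every step of the plot by strength.

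**Figure D3:**
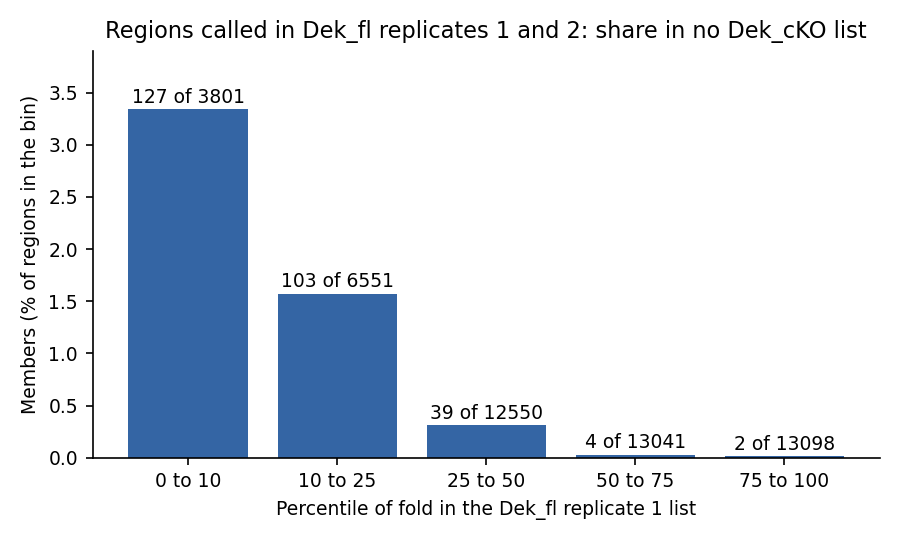
Share of regions called in Dek_fl replicates 1 and 2 that have no peak in any Dek_cKO list (y axis, %), by percentile of fold in the Dek_fl replicate 1 list (x axis); numbers are members of regions in each bin. The share falls from 3.34% in the weakest bin to 0.0153% in the strongest.

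The values near the limits of the rule were as follows. The 3 members with the lowest weaker −log10 q, all at 1.30 in replicate 1, lay 6967 bp from Bcl10, an adaptor gene of NF-kappaB signalling, in the body of Auh, a mitochondrial hydratase gene, and 7613 bp from Actbl2. Their fold in replicate 1 was 2.32 each. Just outside stood 1280 regions with at least 2 Dek_fl calls and exactly 1 Dek_cKO call. The 3 with the lowest Dek_cKO −log10 q, 1.36 each in replicate 2, lay at Ifi206, in Arhgap32 and near Pofut2. Their Dek_cKO fold was 2.32 each, and their Dek_fl folds ran from 2.49 to 3.15. A further 4940 regions had 1 Dek_fl call and no Dek_cKO call. The weaker −log10 q was under 3 at 122 members (41.9%).

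By position, 39 members (13.4%) lay within 1 kb of a gene end, 155 (53.3%) in gene bodies and 97 (33.3%) outside genes. Over all 84592 regions these shares were 26.0%, 47.1% and 26.9%, and over the 19683 regions called in all 6 lists 56.6%, 28.9% and 14.5%. The opposite set of Dek_cKO regions was close to the members, at 12.6%, 55.1% and 32.4%. So were the 6197 regions called in exactly 1 list of each group, at 12.6%, 55.8% and 31.6%. Start sites of the promoter table lay within 1 kb of 11 of 286 members (3.85%), against 17.7% of all regions on the same chromosomes. Members had a median length of 629 bp (337 to 1604), against 1002 bp over all regions and 558 bp in the opposite set. Protein-coding genes overlapped or lay within 50 kb of all but 30 members. The farthest members lay 411005 bp from Ets1 and 400363 bp from Meis1, both transcription factor genes, with folds of 3.15 and 3.79 and of 3.48 and 3.05.

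At ends of protein-coding genes there were 22 members, and several of the highest by fold follow. The first by fold lay 701 bp from Aldh7a1, an aldehyde dehydrogenase gene, with folds of 4.31 and 3.66 in replicates 1 and 2. At Papola, which encodes the main nuclear poly(A) polymerase, folds were 3.81 and 3.91, and at Parva, a focal adhesion gene, 3.81 and 3.66. At the neuropeptide gene Nmu they were 3.15 and 4.48. Cfap73, of motile cilia, had 3.96 and 2.67 and the orphan receptor gene Gpr158 3.48 and 2.81. Mc4r, the melanocortin receptor of appetite control, had 2.65 and 3.17 and Zfp217, a zinc finger gene, 3.20 and 2.48. Sftpb, a lung surfactant protein gene, had 2.98 and 2.50 and Trim71 2.76 and 2.50. Rnaset2a, given above, was also among the highest. Of the folds named, the largest in replicates 1 and 2 was 4.48, and all of these regions but that at Rnaset2a were called in both.

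Of 14 gene lists for this tissue, holding 289 genes that all matched the annotation, 11 members had a listed gene as the nearest protein-coding gene within 50 kb. That is 3.78% of members, against 2.51% of all regions and 2.26% of the opposite set. Stem cell transcription factors had 5 such members of 480 regions nearest to these genes (1.04%, against 0.344% over all regions), and 12 regions of the opposite set. At Erg, an ETS factor needed for stem cell upkeep, folds were 2.64 and 2.56 in replicates 1 and 2 and −log10 q 6.54 and 14.2, and the nearest Dek_cKO-called region lay 547 bp away. Mecom, a self-renewal factor, had folds of 2.92 and 2.14 with a Dek_cKO-called region 424 bp away. Zfpm1, the FOG1 cofactor of GATA factors, had 2.55 and 2.99, and Ikzf2, which encodes Helios, 2.08 and 1.92. The member 15680 bp from Zbtb16, which encodes PLZF, had 2.49 and 3.17. In the AKT and mTOR list there were 2 of 226 regions (0.885%), and 2 of the opposite set (0.885%, against 3.19% over all regions). Rptor, the substrate-binding subunit of mTORC1, had folds of 3.34 and 2.76, and Inpp5d, the SHIP1 phosphatase that opposes PI3-kinase, 2.38 and 1.65. Single members lay in Ppargc1a, a coactivator of mitochondrial biogenesis (2.82 and 3.66), 22373 bp from the myeloid factor Cebpb (2.43 and 3.03), and 10760 bp from Jun of AP-1 (2.49 and 2.20). The lists that hold these 3 genes had 120, 101 and 202 regions. The shares were thus 0.833%, 0.990% and 0.495%. Tek was the member of the surface and endothelial lists (0.833% of 120 regions and 0.658% of 152). No member fell to the lists of cytokine receptors, B lymphoid genes, T and NK cell genes, erythroid and megakaryocyte genes, corepressors and deacetylases, other chromatin regulators, or adhesion and chemokines. These lists had 46 to 163 regions each, of which 0.344% is less than 1 region, so their zeros show nothing about them. The same holds for the counts of 1 or 2 in the lists of 101 to 226 regions. There was none within 50 kb of Dek.

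Members were spread over all 20 chromosomes. Chromosome 11 held the most, 26, followed by chromosome 10 with 25 and chromosome 4 with 24, and chromosome X held 3. Per 1000 regions of the chromosome, chromosome 10 had 5.43 members, chromosome 11 had 4.57 and chromosome 4 had 4.53. The lowest were chromosome 18 with 1.89 and X with 1.54. Chromosome 10 held 8.59% of members and 5.44% of all regions, and its share of each list's peaks was alike in all 6 lists, at 5.42% to 5.60%. The share of peaks on X was 1.78% in Dek_fl replicate 1 and 2.05% to 2.31% in the other 5 lists.

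**Figure D4:**
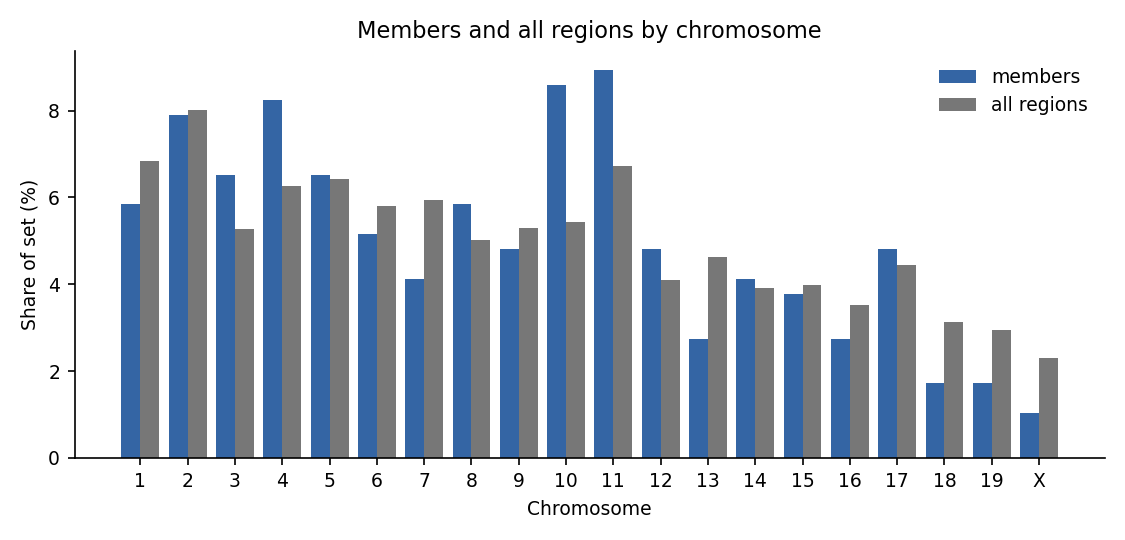
Share of the 291 members and of all 84592 regions on each chromosome (y axis, %). Chromosomes 10 and 11 hold a larger share of members than of regions, and chromosomes 13, 18, 19 and X a smaller one.

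Neighbouring members on a chromosome were a median of 4.55 Mb apart. Only 14 members (4.81%) lay within 100 kb of another, in 7 pairs with no run of 3. This share moved with single libraries, to 0% without Dek_fl replicate 1 or 2, 11.4% without Dek_cKO replicate 1 and 16.9% without Dek_cKO replicate 2. It also depends on how many regions are placed, so it was not compared with the larger opposite set. The closest pair was that near Gm40035, with a gap of 1544 bp and no other region between. The pair near Bcl10, one of whose members lay at a gene end, spanned 18176 bp with 1 Dek_cKO-called region between. A pair 94009 and 118539 bp from Pgrmc2 spanned 25072 bp. In Marchf1, a ubiquitin ligase gene that acts on MHC class II, a pair spanned 51580 bp with 5 Dek_cKO-called regions between. The pair between Dusp10 and the homeobox gene Hlx spanned 53630 bp with 1 such region. In Itga9, an integrin gene, the span was 78087 bp with 9 such regions. A Dek_cKO-called region lay within 1 kb of 43 members (14.8%) and within 5 kb of 168 (57.7%), at a median of 3784 bp. For the opposite set and Dek_fl calls these values were 10.3%, 47.3% and 5463 bp. Each Dek_cKO list held more peaks than the same-numbered Dek_fl list, so these distances are not directly comparable between the sets. Except in the pair near Gm40035, members in pairs stood among regions that the Dek_cKO lists also called.

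Chromatin beside the members was compared at regions called in all 6 lists, which the rule did not use. Folds were ranked within each list over these 19683 regions, turned into normal scores and compared between the groups with limma, adjusted over all of them by Benjamini-Hochberg. Each of 205 members had such a region within 50 kb, no 2 the same. Of these 205 regions 0 passed an adjusted p of 0.05 (2 at an unadjusted p under 0.05), against 0% of all 19683 (87 unadjusted). With the replicate number as a block 0 of the 205 passed (16 unadjusted). Over all 19683 regions 1 passed in that fit, or 0.00508% (873 unadjusted). The median score difference, Dek_cKO minus Dek_fl, was -0.029 at these 205 regions and -0.018 over all, and 53.7% and 52.7% were below 0. Its sign was reversed when Dek_fl replicate 3 (0.020) or Dek_cKO replicate 1 (0.019) was left out. The smallest p was at the start of Tek, with a difference of -1.30 (SE 0.44, n = 3 per group, limma adjusted p = 1.0, or 0.15 with the block). Next was the start of Nf1, a RAS regulator gene named after its values were seen, with folds of 6.84, 6.45 and 10.4 for Dek_fl and 6.67, 7.33 and 7.28 for Dek_cKO. There the groups overlapped, and the score differed by -0.71 (SE 0.31, limma adjusted p = 1.0).

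The lists were then cut to the length of the shortest, 23809 peaks, by −log10 p. A single member, that in Tek, kept a call in at least 2 Dek_fl lists (0.344% of members), and it kept all 3. Among the 49616 regions with at least 2 Dek_fl calls and a Dek_cKO call, 45.9% did so. One Dek_fl call was left at 19 members and none at 271. The cut kept 2 of 276 members in the Dek_fl replicate 1 list and 1 of 290 in replicate 2, while replicate 3, the shortest list, lost none by construction. The lowest −log10 q kept was 13.1 in Dek_fl replicate 1 and 32.1 in replicate 2. The rule applied afresh to the cut lists gave 529 regions (1.52% of 34800), and the opposite rule 461 (1.32%). Of the 529, 528 had a Dek_cKO peak in the deposited lists, and 1, Tek, was a member.

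A milder cut was added after the data had been seen. Replicates 1 and 2 of both groups were cut to 52434 peaks, the length of Dek_fl replicate 1, and both replicate 3 lists to 23809. The rule then gave 944 regions (1.46%) and the opposite rule 1176 (1.82%), against 291 and 2695 in the deposited lists. Of the 291 members, 50 (17.2%) kept at least 2 Dek_fl calls and 241 kept 1. The lists of Dek_fl replicates 1 and 3 were already at these lengths and lost no peak, so every member kept a call by construction. The split thus shows mainly whether the call in Dek_fl replicate 2 was kept, where the lowest −log10 q kept was 9.18. That list kept 48 member peaks. Members that kept at least 2 calls included Tek, the pair near Gm40035, Cfap54, Cdh23, Rnf34, Erg, Zfpm1, Sult2b1, Fam178b, Nmu and both members between Dusp10 and Hlx. Fam178b did so only through replicates 1 and 3, which were not shortened. Mecom, Rptor, Ikzf2, Papola and Parva were among the members left with 1.

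The choice was repeated with replicates 1 and 2 alone, so that replicate 3 could be read as libraries that had no part in it. Of 282 regions called in Dek_fl replicates 1 and 2 and in neither Dek_cKO list of those numbers, 4 had a peak in Dek_fl replicate 3 (1.42%, exact Clopper-Pearson 95% interval 0.388 to 3.59). In Dek_cKO replicate 3, 7 did (2.48%, interval 1.0 to 5.05). Regions of any replicate 1 or 2 list were called at 27.4% and 30.7% in these lists. Choice by the Dek_fl lists was thus not followed by more calls in the third Dek_fl list than in the third Dek_cKO list. Of the 2555 regions of the opposite choice, 63 (2.47%) had a peak in Dek_fl replicate 3 and 137 (5.36%) in Dek_cKO replicate 3. In the mildly cut lists, 45 of 946 (4.76%) and 49 (5.18%) were called in Dek_fl and Dek_cKO replicate 3, against 35.8% and 35.3% of all regions. Of the 1130 regions of the opposite choice, 60 (5.31%) and 79 (6.99%) were. In lists of 23809 peaks, 190 of 459 (41.4%) and 161 (35.1%) were, against 67.7% and 65.8% of all regions of replicates 1 and 2. Of the 460 regions of the opposite choice, 153 (33.3%) and 142 (30.9%) were. The order of the 2 replicate 3 lists thus turned with the length of the lists, and it was the same for both choices at each length. With 1 library per group in replicate 3, these differences were not tested, and intervals cover counting error only.

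**Figure D5:**
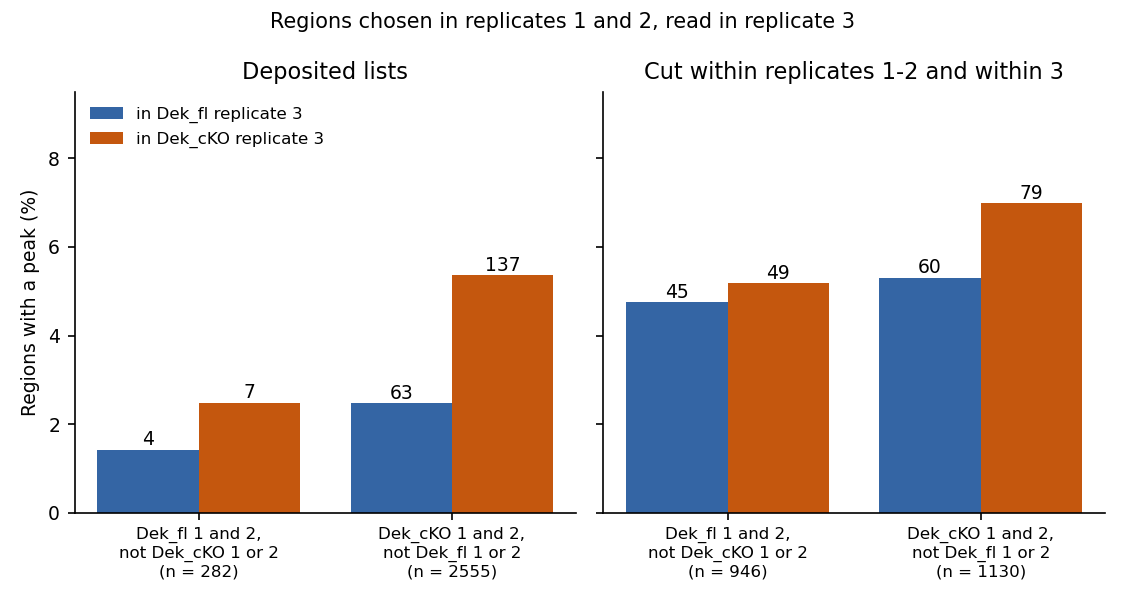
Share of regions chosen in replicates 1 and 2 that have a peak in each replicate 3 list (y axis, %), in the deposited lists and in lists cut to equal length within replicates 1 and 2 and within replicate 3; numbers above bars are regions. Of the 282 regions chosen by Dek_fl, 4 are in Dek_fl replicate 3 and 7 in Dek_cKO replicate 3.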

How the data were processed

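ATAC-seq peak lists of 6 libraries were analysed, grouped by sample title. The submitters' processing notes name Bowtie2, Picard, MACS2 and mm10; their versions, settings and any Tn5 shift are unknown here. The authors deposited 1 list per library, not called on pooled samples. The deposited columns hold a score, a fold enrichment ratio at the summit, a −log10 p-value and a −log10 q-value, each set within its list and used here only to describe, rank or filter peaks. Percentiles are within a list. Where a list had several peaks in a region, the one of highest −log10 p stood for it.

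Genes came from RefSeq (GRCm38.p6), 49554 on these chromosomes, 21631 of them protein-coding, given without strand or exons; a gene end is either annotated end. Start sites came from the promoter table, which covers 26794 genes. The test for shared regions used limma 3.58.1 (R 4.3.3), checked on simulated data, as was the merge. Same-numbered libraries deviated together (correlations of 0.27, 0.52 and 0.74 for numbers 1, 2 and 3), so the blocked fit stands beside the main one; this pairing is read from the data, and the labels do not say what a number marks. P-values measure the spread between libraries, which may be technical.

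Named regions are all members called in 3 lists; the 8 highest by mean percentile of fold and of −log10 q; up to 12 at protein-coding gene ends, of which 1 is not reported here; those kept in equal-length lists; runs; those near listed genes, Dek or Tek; and those next to the rule's limits. Sequences were chosen by overlap with the promoter table, with Tek added. Those of Gm13652 and Il33, which members also met, are not printed. The members and lists were chosen with earlier results of these data known. Alternatives changed the libraries, list length, q threshold, overlap, gene-end distance and model terms.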

Additional observations from a re-analysis of the deposited data

How the results depend on the processing

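The number of regions that met the rule ranged from 4 (without Dek_fl replicate 2) to 927 (without Dek_cKO replicate 1) when single libraries were left out, was 529 in equal-length lists, 32 at a −log10 q of at least 10 and 944 with lists cut within replicates 1 and 2 and within replicate 3. The last of these was chosen after seeing the data. It stayed within 1.5 times of 291 at a −log10 q of at least 3, with half-peak overlap or a 500 bp merge, and in replicates 1 and 2 only. The share at gene ends ranged from 11.1% (without Dek_fl replicate 1) to 25% (without Dek_fl replicate 2, 4 regions). It was 33.1% in equal-length lists, 8.93% within 500 bp, 17.9% within 2 kb, 7.56% with protein-coding genes and 3.85% at start sites, the last added after seeing the data. The share within 100 kb of another member ranged from 0% (without Dek_fl replicate 1 or 2) to 16.9% (without Dek_cKO replicate 2), and was 11.4% without Dek_cKO replicate 1 and 9.45% in equal-length lists. Within 50 kb it was 2.06% and within 250 kb 9.97%. Members that met the rule in equal-length lists numbered 1 to 5 without single libraries (5 without Dek_cKO replicate 1, 2 without Dek_cKO replicate 2), and 50 in the milder cut. Called in Dek_fl replicate 3 were 41.4% of regions in equal-length lists and 4.76% in the milder cut, and in Dek_cKO replicate 3 35.1% and 5.18%. With the replicate block 0 of the 205 neighbouring regions were called and their median stayed at -0.029; leaving out libraries moved it between -0.083 (without Dek_cKO replicate 3) and 0.020 (without Dek_fl replicate 3). Apart from list length and libraries left out, whose construction changes which peaks are present, the cause of these moves was not tested. Depth is unknown, so no interval can be given for an uncalled region.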
